A study of Mus musculus with 6 samples.

Results

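The genes described here encode 8 transcription factors of the myeloid lineage: Spi1, Irf8, Irf5, Runx1, Cebpa, Cebpb, Cebpd and Ikzf1. They were chosen by name, and all 8 of the 52550 genes in the count table were found and passed the filter on low counts, which left 16758 genes for testing. The 6 libraries, each from 1 male C57BL/6J mouse, hold hippocampal RNA taken after stereotaxic injection of an adeno-associated virus (AAV) into CA1 on both sides at 8 weeks of age. Libraries are labelled 31 days. In the 3 TAF15 OE mice the virus is labelled AAV-CaMKIIα-TAF15, so that TAF15, an RNA-binding protein of the FET family, was placed under a promoter of excitatory neurons. The 3 Control mice received the control AAV, whose promoter and insert are not named in the labels. All 6 mice therefore had received a virus by surgery, and no uninjected hippocampus is among the samples. The whole hippocampus was used, so the counts pool neurons, glia, vessels and blood cells, and a larger number of cells of a type cannot be told apart from more RNA per cell.

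Myeloid identity is set by a small set of DNA-binding proteins. PU.1, the ETS-family product of Spi1, opens the enhancers of macrophages and microglia and is required for both. IRF8 lacks strong binding of its own at many sites and joins PU.1 on composite ETS-IRF elements, while IRF5 carries Toll-like receptor signals to cytokine genes. RUNX1 and Ikaros (Ikzf1) act earlier, in blood stem and progenitor cells, and Ikaros is also a lymphocyte factor. C/EBPα turns progenitors toward monocytes and granulocytes, whereas C/EBPβ and C/EBPδ are induced by inflammation and are also made in neurons and astrocytes. In the brain, PU.1, IRF8 and RUNX1 are best known from microglia.

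Of the 8 genes, 6 rose in TAF15 OE: Irf8, Ikzf1, Irf5, Runx1, Spi1 and Cebpa, by 1.66-fold to 2.90-fold. None fell, and Cebpb and Cebpd did not pass the test, edgeR's quasi-likelihood test with Benjamini-Hochberg adjustment over all tested genes and a threshold of 0.05. Over all tested genes 9.32% were called higher (1562) and 5.95% lower (997). The groups did not overlap in the same 6 genes, against 34.6% of all tested genes. The median log2 fold change of the 8 was 1.07, beside 0.0264 over all tested genes. With TAF15 OE 1 left out, alone or together with Control 1 (a joint omission chosen after the data were seen), 5 were called higher and 1 lower: Runx1 was lost and Cebpb fell. Lower calls were a larger part of all calls in those fits. Of all calls, 51.7% were higher without TAF15 OE 1 and 54.1% without both, against 61% with no library left out.

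Library totals ran from 14965464 to 16067000 counts. Taf15 itself stood between 53.0 and 63.5 CPM (counts scaled to the TMM-adjusted library size) in Control and between 241 and 272 in TAF15 OE, as labelled. Control 1 and TAF15 OE 1 were apart from the other 4 libraries on the second principal component (21.7% of the variance), and the 6 choroid plexus markers summed to 142 and 1510 CPM there, against 4240 to 4940 in the others. Among the 1562 genes called higher, TAF15 OE 1 was the highest of the TAF15 OE libraries in 55% (859), and it was so for 8 of the 8 members. The part of this library's other features in the results was not tested.

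Spi1 (ENSMUSG00000002111, chromosome 2, 91082390 to 91115756, plus strand, GRCm38 as in the authors' table) was counted 116, 156 and 142 times in Control 1, 2 and 3, against 384, 230 and 260 times in TAF15 OE 1, 2 and 3. Every TAF15 OE library lay above every Control library, and TAF15 OE 1 stood well above the other 2. Spi1 rose 2.00-fold, from 9.23 ± 1.25 to 18.5 ± 5.26 CPM (mean ± SD, n = 3 mice per group, here and below; log2 fold change 1.00, SE 0.197, adjusted p = 0.00951). The call held with each library left out. With Control 1 and TAF15 OE 1 both left out, the log2 fold change was 0.62 (adjusted p = 0.0141).

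Irf8, the partner of PU.1, had the largest change of the 8. The gene (ENSMUSG00000041515, chromosome 8, 120736358 to 120756694, plus strand) was counted 141, 186 and 177 times in the Control mice, against 681, 406 and 457 times in the TAF15 OE mice, in replicate order. The lowest TAF15 OE library held more than 2 times the counts of the highest Control library. Irf8 rose 2.90-fold, its mean going from 11.2 ± 1.46 to 32.6 ± 9.42 CPM (a log2 fold change of 1.54, 95% interval 1.07 to 2.00, adjusted p = 0.00278). With 1 library left out at a time the value ran from 1.25 to 1.65. Across the 16758 tested genes, 274 had a log2 fold change at least as high.

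Irf5, the effector of Toll-like receptor signals, lies on chromosome 6 (ENSMUSG00000029771, 29526625 to 29541871, plus strand). It was counted 87, 79 and 100 times in the Control mice, against 260, 171 and 194 times in the TAF15 OE mice. The groups were well separated, again with TAF15 OE 1 on top. Irf5 rose 2.22-fold, its mean going from 5.94 ± 0.712 to 13.2 ± 2.96 CPM (1.15 ± 0.183 on the log2 scale, estimate ± SE, adjusted p = 0.00279). It shares 411 exonic bases with Tnpo3 on the other strand, and no source used here gives the strand setting of the counting. Tnpo3 itself had a log2 fold change of -0.16 (adjusted p = 0.190) and did not pass the test.

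Runx1 was the scarcest member. The gene (ENSMUSG00000022952, minus strand of chromosome 16, 92601466 to 92826149) was counted 33, 31 and 40 times in the Control mice, against 115, 58 and 68 times in the TAF15 OE mice. Counting error alone gives a CV of 17.0% at the mean Control count, above the observed 13.5%, so the Control libraries were as close as the depth can show. Runx1 rose 2.19-fold, its mean going from 2.32 ± 0.312 to 5.10 ± 1.96 CPM (1.13 ± 0.288 on the log2 scale, estimate ± SE, adjusted p = 0.0230). Runx1 missed the threshold when any Control library was left out (adjusted p = 0.0693, 0.0882 and 0.0512 for Control 1, 2 and 3) and when TAF15 OE 1 was (adjusted p = 0.0734, log2 fold change 0.75). It was also lost with Control 1 and TAF15 OE 1 both left out (0.72, adjusted p = 0.107), with limma-voom (adjusted p = 0.0512) and with limma-trend on log2(FPKM + 1) without a filter (0.26, adjusted p = 0.220).

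Ikzf1, which encodes Ikaros, had the second largest change and the smallest p of the 8. It lies on chromosome 11 (ENSMUSG00000018654, 11685003 to 11772926, plus strand) and was counted 93, 83 and 97 times in the Control mice, against 307, 191 and 248 times in the TAF15 OE mice. The Control libraries lay close together, and the lowest TAF15 OE library stood far above them. Ikzf1 rose 2.58-fold, its mean going from 6.09 ± 0.516 to 15.7 ± 3.58 CPM (1.37 ± 0.177 on the log2 scale, estimate ± SE, adjusted p = 9.93e-04). On the log2(FPKM + 1) scale the value was 0.87 and was still called (adjusted p = 0.0154 with a mean FPKM of at least 0.5).

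The C/EBP genes did not move together. Cebpa (ENSMUSG00000034957, chromosome 7, 35119293 to 35121928, plus strand) was counted 384, 382 and 355 times in the Control mice, against 758, 640 and 568 times in the TAF15 OE mice. The Control libraries were nearly equal and all 3 TAF15 OE libraries were higher. Cebpa rose 1.66-fold, the smallest of the 6 rises, its mean going from 25.0 ± 1.24 to 41.7 ± 6.99 CPM (0.74 ± 0.120 on the log2 scale, estimate ± SE, adjusted p = 0.00314). It shares 51 exonic bases with the antisense gene Gm45091, which held 40 counts over all 6 libraries.

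Cebpb, the inflammation-induced relative, was the one member with a lower mean in TAF15 OE. The gene (ENSMUSG00000056501, chromosome 2, 167688915 to 167690418, plus strand) was counted 59, 87 and 81 times in the Control mice, against 88, 47 and 39 times in the TAF15 OE mice. In CPM, TAF15 OE 1 (5.62) lay within the Control range of 4.01 to 5.77, while TAF15 OE 2 and 3 lay below all 3 Control libraries in counts and in CPM. Control mice averaged 5.06 ± 0.929 CPM, TAF15 OE mice 3.69 ± 1.71, and Cebpb did not pass the test (log2 fold change -0.46, 95% interval -1.13 to 0.22, adjusted p = 0.366). The result turned on TAF15 OE 1: without it Cebpb fell by 0.92 on the log2 scale (adjusted p = 0.0339), and with Control 1 left out as well it fell by 1.06 (adjusted p = 0.0122). Leaving out TAF15 OE 3 gave -0.22, and leaving out Control 1 gave -0.60. Cebpb is a gene of a single exon that shares 312 exonic bases with Tmem189 on the other strand (log2 fold change -0.09, adjusted p = 0.612).

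Cebpd, also induced by inflammation, differed least of the 8. It lies on chromosome 16 (ENSMUSG00000071637, 15887286 to 15891031, plus strand) and was counted 358, 330 and 285 times in the Control mice, against 421, 332 and 390 times in the TAF15 OE mice. The groups overlapped. TAF15 OE 2 lay within the Control range in counts and in CPM, and TAF15 OE 3 (23.7 CPM) in CPM only. Control mice averaged 21.7 ± 2.67 CPM, TAF15 OE mice 24.1 ± 2.57 (log2 fold change 0.15, 95% interval -0.11 to 0.42, adjusted p = 0.451). That interval holds no change as well as a rise of 0.42. It shares 562 exonic bases with Spidr on the other strand, whose log2 fold change was 0.10 (adjusted p = 0.819).

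**Figure D1:**
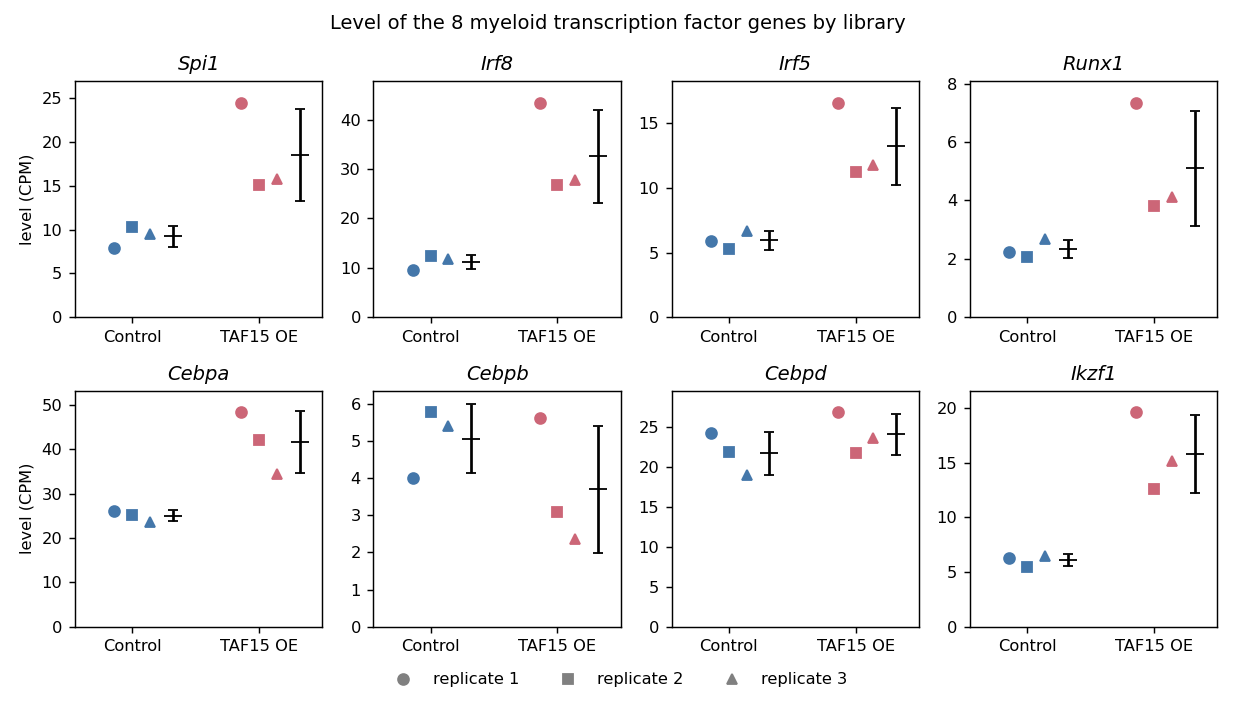
Level of each gene in CPM (linear axis from 0) in the 3 Control (blue) and 3 TAF15 OE (red) libraries, with replicates as circles, squares and triangles and the group mean ± SD in black. In 6 panels the red points lie above all blue points, and in the Cebpb and Cebpd panels the groups overlap.

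**Figure D2:**
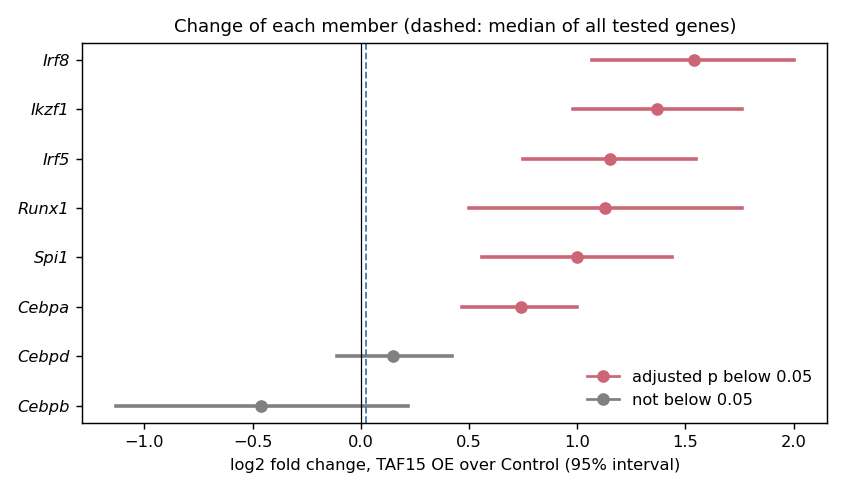
Log2 fold change of each gene, TAF15 OE over Control, with its 95% interval from edgeR's quasi-likelihood fit (red, adjusted p below 0.05). The intervals of Irf8, Ikzf1, Irf5, Runx1, Spi1 and Cebpa lie above 0, and those of Cebpd and Cebpb span it.

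Because the C/EBP genes parted from one another, and because PU.1 is known to control other members, the 250 bases before the start sites were searched on both strands for 7 short motifs. The set of windows used, drawn from RefSeq on GRCm38.p6, held 6 of the 8 genes with 9 start sites. Spi1 and Cebpd were not among them. The sequences of 4 windows are shown 5′ to 3′, in lower case with each match in capitals: the gene with the largest rise, the only window with a PU.1 motif, and the C/EBP pair of which one rose. The Irf8 window is chr8:120736108-120736357, plus strand. The Runx1 window, at the second and downstream of its 2 start sites, is chr16:92697330-92697579, minus strand. The Cebpa window is chr7:35119043-35119292 and the Cebpb window chr2:167688665-167688914, both plus strand.
Irf8: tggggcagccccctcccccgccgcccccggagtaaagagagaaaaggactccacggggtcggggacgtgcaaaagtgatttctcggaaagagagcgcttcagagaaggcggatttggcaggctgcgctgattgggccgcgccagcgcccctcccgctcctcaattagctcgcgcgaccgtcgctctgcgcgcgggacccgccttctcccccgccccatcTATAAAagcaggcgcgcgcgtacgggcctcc
Runx1: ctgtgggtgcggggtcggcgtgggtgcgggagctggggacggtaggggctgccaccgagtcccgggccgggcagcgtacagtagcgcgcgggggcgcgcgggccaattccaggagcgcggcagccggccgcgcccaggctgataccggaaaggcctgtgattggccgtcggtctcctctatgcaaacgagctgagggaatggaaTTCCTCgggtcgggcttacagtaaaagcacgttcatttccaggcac
Cebpa: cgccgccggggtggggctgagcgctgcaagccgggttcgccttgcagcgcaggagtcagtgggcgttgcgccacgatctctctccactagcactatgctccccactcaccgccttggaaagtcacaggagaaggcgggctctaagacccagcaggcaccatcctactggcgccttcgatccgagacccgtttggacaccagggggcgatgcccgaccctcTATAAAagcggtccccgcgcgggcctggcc
Cebpb: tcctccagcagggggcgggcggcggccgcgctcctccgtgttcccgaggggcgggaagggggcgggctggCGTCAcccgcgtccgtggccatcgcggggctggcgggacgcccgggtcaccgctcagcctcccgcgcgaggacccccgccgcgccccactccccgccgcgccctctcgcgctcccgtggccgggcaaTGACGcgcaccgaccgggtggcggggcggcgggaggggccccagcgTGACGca
The Irf8 and Cebpa windows each hold a TATA box (TATAAA), which begins 31 and 30 bases before the start and is found in 12.4% of all 32851 windows. The Runx1 window holds 1 PU box (GAGGAA, here read on the other strand), which begins 46 bases before the start and is found in 23.2% of all windows. The Cebpb window holds 3 copies of the core of the CRE, the cyclic AMP response element (TGACG, 17.8% of all windows), at 180, 53 and 7 bases before the start. This motif was added after the sequence was seen. The Runx motif TGTGGT (14.1% of all windows), the C/EBP motif TTGCNNAA (9.56%), the interferon element (a GAAA pair with 2 bases between, 2.98%) and the ETS-IRF composite (GGAA, 2 bases, GAAA, 2.30%) are not in any of the 9 windows. The PU box can overlap the composite element. Each share counts the windows with at least 1 match at any position, so it does not describe 3 copies or a fixed distance from the start. The letters were matched in these windows only, and no binding was measured.

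Levels of different genes were compared per length, in FPKM (fragment counts over gene length and library depth) as the authors deposited them. In Control the order was Cebpa (9.32 ± 0.406), Cebpd (5.69 ± 0.634), Spi1 (3.37 ± 0.515), Cebpb (3.31 ± 0.662), Irf5 (2.01 ± 0.236), Irf8 (1.57 ± 0.230), Ikzf1 (1.04 ± 0.0780) and Runx1 (0.193 ± 0.0260). Of neighbours in that order, Spi1 and Cebpb overlapped, from 2.81 to 3.83 FPKM for Spi1 and from 2.56 to 3.83 for Cebpb. The other neighbours did not overlap. In TAF15 OE, Cebpa was still the highest (16.0 ± 2.50) and Runx1 the lowest (0.436 ± 0.162). Between them Spi1 (6.94 ± 1.89) stood beside Cebpd (6.53 ± 0.636), and Irf8 (4.68 ± 1.30) beside Irf5 (4.61 ± 0.977), with overlapping values in both pairs and between Cebpd and Irf8. Cebpb had gone from the fourth to the seventh place (2.48 ± 1.12), beside Ikzf1 (2.76 ± 0.600), which it overlapped. The FPKM values of Runx1 rest on a length of 11827 bases and those of Cebpb on 1504.

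Ratios between 2 members within a library do not depend on the library total. Spi1 over Irf8, in CPM, was 0.823, 0.839 and 0.802 in Control 1, 2 and 3, against 0.564, 0.567 and 0.569 in TAF15 OE 1, 2 and 3. The ratio was thus nearly the same in the 3 mice of a group, though Spi1 alone had a CV of 28.4% among the TAF15 OE mice, and it was lower in TAF15 OE. Counting error at the mean counts gives such a ratio an SD of 8.71%, more than the spread within either group. Of all the pairs compared, this one varied least within the groups. Spi1 over Irf5, for one, was 1.33, 1.97 and 1.42 in Control. Cebpa over Cebpb was 6.51, 4.39 and 4.38 in Control, against 8.61, 13.6 and 14.6 in TAF15 OE, with no overlap. Irf8 over Cebpb had the widest shift of the pairs, from 2.39, 2.14 and 2.19 to 7.74, 8.64 and 11.7. Irf8 over Ikzf1 overlapped, at 1.52, 2.24 and 1.82 in Control, against 2.22, 2.13 and 1.84 in TAF15 OE. In all, 28 pairs were compared, as a description: an exact permutation test of 3 against 3 mice cannot give a p below 0.10.

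Microglia markers were higher in TAF15 OE too. Of 12 tested, 11 rose, against 9.32% of all tested genes, and 1 did not pass the test. The median log2 fold change of the markers was 0.89. Summed, they stood at 418 to 467 CPM in Control, against 750 to 993 in TAF15 OE, highest in TAF15 OE 1. Each member was therefore also set against their mean log2 level in the same library. The difference between groups was 0.07 for Spi1, 0.24 for Irf5, 0.18 for Runx1 and -0.18 for Cebpa on the log2 scale, and for these 4 genes the groups overlapped. Spi1, for one, stood at -1.81, -1.27 and -1.40 in Control, against -1.18, -1.55 and -1.52 in TAF15 OE.

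Irf8 and Ikzf1 stood higher relative to the microglia markers in every TAF15 OE library than in any Control library, which, like the pairs, is a description. Irf8 stood at -1.53, -1.02 and -1.08 relative to the markers in Control and at -0.36, -0.73 and -0.71 in TAF15 OE, a difference of 0.61. Ikzf1 stood at -2.13, -2.18 and -1.95 in Control, against -1.51, -1.82 and -1.59 in TAF15 OE, a difference of 0.45. Cebpd and Cebpb were lower relative to the markers, whose own mean log2 level rose by 0.9. A gene with no change of its own therefore falls on this ratio. Cebpd itself had a log2 fold change of 0.15 with overlapping groups. How many of all tested genes fall in this way was not computed. Cebpd stood at -0.18, -0.19 and -0.39 in Control, against -1.05, -1.02 and -0.94 in TAF15 OE, and Cebpb at -2.78, -2.11 and -2.21 against -3.31, -3.84 and -4.26. On this ratio no groups overlapped in these 4 genes. The share of all tested genes without overlap on this ratio was not computed. A rise above the marker mean was not particular to Irf8 and Ikzf1. The textbook PU.1 targets described below had a median log2 fold change of 1.23, also above 0.9. Without the 4 markers that are transcription factors or are on a target list the differences were 0.62 (Irf8), 0.46 (Ikzf1), -0.73 (Cebpd) and -1.42 (Cebpb).

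**Figure D3:**
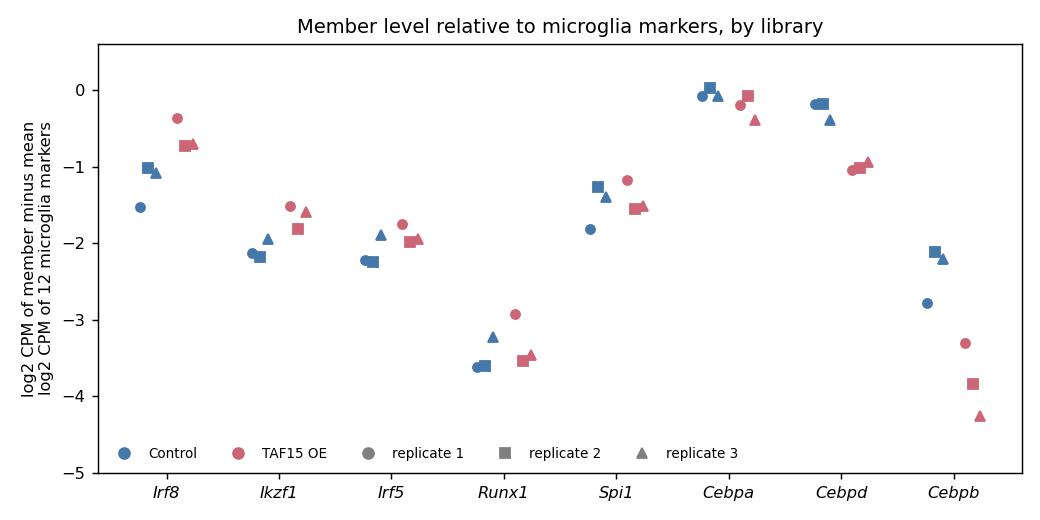
Log2 CPM of each gene minus the mean log2 CPM of 12 microglia markers in the same library (Control blue, TAF15 OE red). Irf8 and Ikzf1 lie higher in TAF15 OE, Cebpd and Cebpb lie lower, and the groups overlap for Irf5, Runx1, Spi1 and Cebpa. The marker mean itself rose by 0.9, so a gene with no change of its own lies lower in TAF15 OE.

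Markers of some, though not all, other cells that make these factors also moved, beside 9.32% of all tested genes called higher. T and NK cell markers, of interest for Ikzf1 and Runx1, had 6 of 7 tested members higher and summed to 6.66 to 7.16 CPM in Control, against 14.5 to 34.7 in TAF15 OE. The lymphocyte relative Ikzf3 is described below. B and plasma cell markers had 3 of 5 higher, with sums of 5.17 to 31.2 CPM against 72.3 to 169. Monocyte markers had 1 of 3 higher, with sums of 2.52 to 3.74 CPM against 7.56 to 14.5, and border-associated macrophage markers 1 of 7, with 35.2 to 43.8 CPM against 45.3 to 63.9. Dendritic cell markers had 0 of 2 called and overlapped (18.0 to 21.7 CPM against 15.8 to 26.5). Of the 9 neutrophil markers 0 passed the filter. Their sum was 0.815 to 2.92 CPM in Control, against 0.789 to 2.94 in TAF15 OE, and Elane was at 0 in every library.

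Astrocyte markers, of interest for Cebpb and Cebpd, had 4 of 7 higher (4330 to 5470 CPM against 5960 to 6640). Endothelial markers had 4 of 7 higher (197 to 245 CPM against 269 to 343), pericyte markers 3 of 5 (181 to 214 against 248 to 290) and oligodendrocyte markers 4 of 5 (4180 to 4530 against 5200 to 6700). Of 4 excitatory neuron markers 3 fell (6410 to 7980 CPM against 4400 to 5560). Over all tested genes 9.32% were called higher and 5.95% lower. The part of each of these cell types in the members' changes was not tested.

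Beside the counts of this list and those below, 9.32% of all tested genes were called higher and 5.95% lower. Relatives of PU.1 in the ETS family had 4 of 9 tested genes higher and 0 lower, with a median of 0.31. These were Fli1, a blood and endothelial factor (log2 fold change 1.16), the lymphocyte and endothelial factor Ets1 (0.80), Elf1 (0.97) and Elf4 (1.52). All 4 held with each library left out. Spib and Spic, the closest relatives of Spi1, were too low to test: Spib reached 1.60 CPM in TAF15 OE 1 and at most 0.303 in the others, and Spic at most 0.192. Of the other interferon regulatory factors 1 of 7 rose, against 9.32% of all tested genes, with a median of 0.14. The gene that rose was the plasma cell and lymphocyte factor Irf4 (1.92). Its call was lost without Control 3 (adjusted p = 0.0521) or TAF15 OE 3 (adjusted p = 0.0538). Irf1, an interferon-induced activator, stood at 9.85, 10.5 and 12.1 CPM in Control, against 31.0, 14.9 and 18.4 in TAF15 OE. The groups did not overlap, but the gene just missed the threshold (0.99, adjusted p = 0.050 after rounding). It passed in 8 of 17 alternatives, among them the fit without TAF15 OE 1 (0.60, adjusted p = 0.0190) and DESeq2 (adjusted p = 6.55e-04). Irf2 did not pass (0.14, adjusted p = 0.361). Irf7 and Irf9, the interferon pathway members, had values of 0.26 and 0.09 with overlapping groups, and turned negative in some fits with libraries left out.

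The C/EBP relatives Cebpg (0.14) and Ddit3 (0.06), which encodes the stress factor CHOP, did not pass the test, and the granulocyte factor Cebpe, at most 0.199 CPM, was not tested. Of the Runx and Ikaros relatives 2 of 7 rose, against 9.32% of all tested genes, with a median of 0.34. Ikzf3, the lymphocyte member Aiolos, rose by 2.62 from 0.402 ± 0.119 to 2.51 ± 1.41 CPM. Cbfb, the partner that RUNX proteins need for stable DNA binding, rose by 0.34 (adjusted p = 0.0412). Runx3, a factor of T and NK cells, did not pass the test (1.97, adjusted p = 0.0850) and stood at 1.29 without TAF15 OE 1 and 2.57 without Control 3. The Cbfb call was lost without Control 2, Control 3, TAF15 OE 1, TAF15 OE 2 or TAF15 OE 3 (adjusted p of 0.105 to 0.140) and with the size factors of DESeq2 (adjusted p = 0.0552).

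Other myeloid and microglial transcription factors had 7 of 21 tested genes higher and 0 lower, with a median of 0.50. Among them were Sall1 (0.91), a microglial identity factor, Bhlhe41 (0.73) and Bach1 (0.65), which held with each library left out. Batf3, a dendritic cell factor, rose by 1.56, a call that was lost without Control 3 (adjusted p = 0.0550). The erythroid and granulocyte factors Gata1, Gfi1 and Gfi1b were too low to test, and Gfi1b had 0 counts in every library.

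Myeloid growth factors and their receptors had 7 of 13 tested genes higher and 0 lower, with a median of 0.72. The ligand Csf1 rose by 0.72 and its receptor gene Csf1r by 0.90, while Il34, the other ligand of that receptor, did not pass the test (-0.41, adjusted p = 0.132). The Csf1r call was lost without Control 2 (adjusted p = 0.0588). The ligand gene Tgfb1 rose by 0.88, a call that was lost without Control 1 (adjusted p = 0.0648) or Control 2 (adjusted p = 0.0704). The TGF-beta receptor genes Tgfbr1 (0.92) and Tgfbr2 (1.05) rose. Csf2 had 0 counts in every library, and Csf3 at most 0.133 CPM.

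Textbook targets of PU.1 had 16 of 19 tested genes higher and 0 lower, with a median of 1.23. They included the lysosomal gene Cd68 (1.44), the signalling adaptor gene Tyrobp (1.18), the endotoxin co-receptor gene Cd14 (1.38) and the F4/80 gene Adgre1 (1.25). The calls of these 4 held with each library left out. Csf2ra did not pass the test (0.13, adjusted p = 0.511). This list was put together with earlier results of these data known, and 3 of its genes (Csf1r, Csf2ra and Csf3r) are also on the growth factor list. All 40 calls among the 84 tested genes of the 9 lists were higher. Over all tested genes 9.32% were called higher and 5.95% lower. In 57 of these 84 genes (67.9%) the groups did not overlap, against 34.6% of all tested genes.

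Targets tied to IRF8 and IRF5 in reactive microglia had 4 of 5 tested genes higher, with a median of 1.20. Cx3cr1, the fractalkine receptor, rose by 1.20, P2ry12, a purine receptor of resting microglia, by 0.75 and Tlr2 by 1.74. P2rx4, an ion channel gated by ATP that IRF5 is known to induce, rose by 0.56 (adjusted p = 0.0289) but was lost without Control 2, Control 3, TAF15 OE 1 or TAF15 OE 2 (adjusted p of 0.0523 to 0.116). Ctss, the gene of the lysosomal protease cathepsin S, stood at 120, 133 and 126 CPM in Control, against 568, 255 and 274 in TAF15 OE. It did not pass the test (1.53, adjusted p = 0.0707) although the groups did not overlap. Without TAF15 OE 1 it was called (1.04, adjusted p = 7.82e-06), as it was with DESeq2 (adjusted p = 0.00283) and limma-voom (adjusted p = 0.0105). The cytokine genes Il1b, Il12b, Il6 and Tnf were too low to test: Il1b was at most 1.28 CPM, Tnf at most 0.703 and Il6 at most 0.197. Il12b reached 2.11 CPM in TAF15 OE 1 and at most 0.200 in the others.

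Textbook C/EBP targets had 3 of 6 tested genes higher and 0 lower, with a median of 1.25. C3, the central complement gene, stood at 8.29, 10.1 and 10.9 CPM in Control, against 214, 55.5 and 72.2 in TAF15 OE. It rose by 3.54 (adjusted p = 0.0462), a call that was lost without any 1 of Control 1, Control 2, Control 3, TAF15 OE 2 or TAF15 OE 3 (adjusted p of 0.0644 to 0.170). Without TAF15 OE 1 the value of C3 was 2.68 (adjusted p = 1.64e-06). Cd14 and Csf3r, which are also on the PU.1 list, were the other two. The Csf3r call was lost without Control 1, 2 or 3 (adjusted p of 0.0906 to 0.110), and its value went from 1.12 to 0.75 without TAF15 OE 1. Lcn2 (1.65, adjusted p = 0.174), Ptgs2 (-0.31, adjusted p = 0.365) and Nos2 (0.47, adjusted p = 0.562) did not pass the test. Lcn2 was called with DESeq2 (adjusted p = 0.0113) and with Control 1 and TAF15 OE 1 both left out (1.58, adjusted p = 0.0193), and Ptgs2 without a filter (adjusted p = 0.0375). The value of Lcn2 was 0.93 without TAF15 OE 1 and 2.31 without Control 1. The acute-phase genes Saa3 and Hp and the granule genes Elane and Mpo were too low to test, at 0.796 CPM or less.

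Under limma-trend on log2(FPKM + 1) without a filter, where low genes move least, Ets1, Elf1, Elf4, Irf4, Ikzf3, Cbfb, Batf3, Tgfb1, Tlr2, P2rx4 and Csf3r were not called (adjusted p of 0.0525 to 0.167). Elf4, P2rx4 and Tgfb1 were also lost there with a filter at a mean FPKM of 0.5 (adjusted p = 0.0532, 0.0720 and 0.0561), and C3 with edgeR on unfiltered counts (adjusted p = 0.0704).

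**Figure D4:**
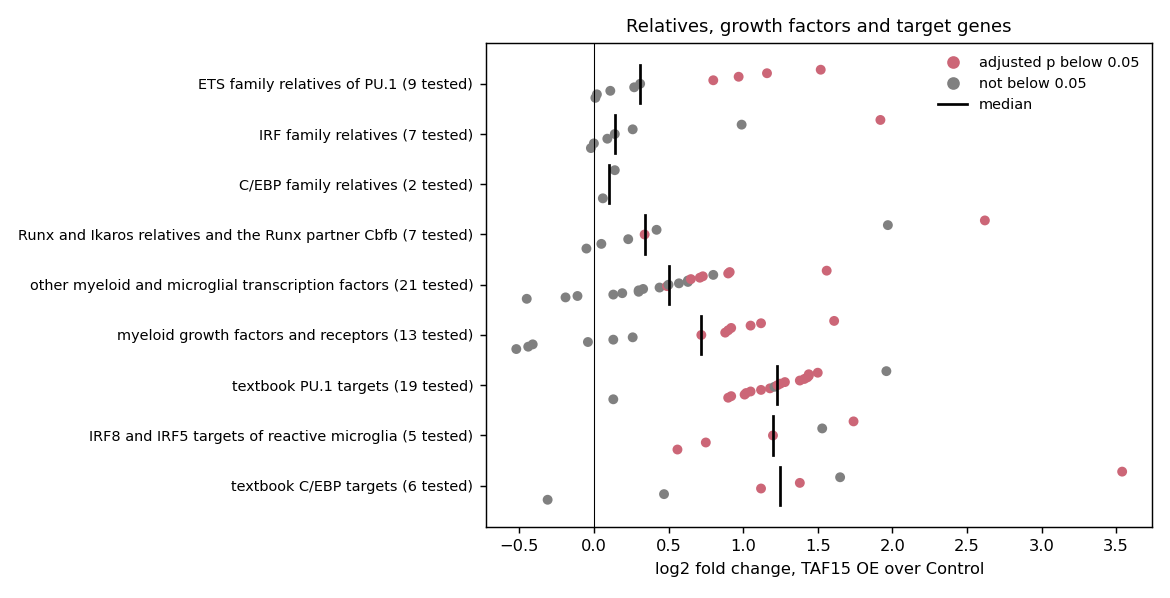
Log2 fold change, TAF15 OE over Control, of each tested gene (points, red where the adjusted p is below 0.05) and the median (black bar) in 9 lists of relatives, growth factors and targets. The median of the PU.1 targets is 1.23. The medians of the interferon regulatory factor and C/EBP relatives are 0.14 and 0.1, though Irf4 lies at 1.92 and Irf1 at 0.99.

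For each member the 3 tested genes with the most similar profile were found, by the root-mean-square difference of centred log2 CPM over the 6 libraries, among the 14166 genes whose log2 CPM averaged 1 or more. For Irf8 they were the phosphatase genes Ptpn6 (difference 0.0960) and Ptpn22 (0.102) and the actin bundling gene Lcp1 (0.113). For Spi1 they were Ly6a (0.0612), Unc93b1 (0.0813) and the lipid phosphatase gene Inpp5d (0.0823). For Irf5 they were Laptm5 (0.0525), Traf3ip3 (0.0642) and Cmklr1 (0.0644), and for Ikzf1 they included Nckap1l (0.0774) and Cd84 (0.0818). For Runx1 they were Themis2 (0.0920), Adcy7 (0.0932) and Il10ra (0.0981). Cebpa was closest to Tmpo (0.0662), Megf6 (0.0759) and the microglia marker Siglech (0.0782). Cebpb had no close match: its nearest, Acot5, Dok3 and U2af1l4, differed by 0.153 to 0.196. Cebpd was nearest to 1810032O08Rik (0.0410), Pigc (0.050) and Arhgap24 (0.0523), which have log2 fold changes of 0.18 to 0.20.

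The authors' deposited table gives log2 fold changes of 1.51 for Irf8, 1.34 for Ikzf1, 1.13 for Irf5, 1.11 for Runx1, 0.97 for Spi1 and 0.71 for Cebpa. In the authors' deposited table the adjusted p of these 6 lies between 3.52e-12 (Irf8) and 0.0136 (Runx1). The authors' deposited table marks 4 of them as significant and leaves Spi1 and Cebpa unmarked. All 558 genes it marks have an absolute log2 fold change of at least 1, which Spi1 and Cebpa miss. For Cebpb (-0.48, adjusted p = 0.404) and Cebpd (0.12, adjusted p = 0.700) the authors' deposited table has no mark.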

How the data were processed

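The submitters' processing notes name GRCm38 and the tools TopHat2, HISAT2 2.1.0, Bowtie2 2.2.3 and CASAVA. Their roles, the counter, the annotation release and the strand setting are not given in the sources used here. Raw counts per gene make up the deposited count table. The authors' FPKM table equalled count over length and library total (largest relative deviation 2.57e-09 in 8926 genes). The authors' comparison table repeats these counts (100% equal) and adds a normalised signal (the mean of scaled counts), a fold ratio, a log2 fold change and a p-value, raw and adjusted, from a test that is not named.

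Counts were fitted in R 4.3.3 with edgeR 4.0.16: filterByExpr (minimum count 10, minimum total 15), TMM scaling and a robust quasi-likelihood F-test with group as the only term, adjusted by Benjamini-Hochberg over 16758 genes and called below 0.05. CPM values are relative to the scaled totals. Log2 CPM used a prior count of 2 for the profiles and principal components. Alternatives used DESeq2 1.42.0 and limma 3.58.1. Groups and replicate numbers come from the sample titles. No 2 libraries were duplicates (smallest chi-square per degree of freedom 5.15). The fits were tested on simulated counts of 16758 genes, where 83.3% of genes changed by 1 on the log2 scale were recovered by edgeR. The simulation gave every gene the same dispersion and had no library that stood apart. That rate therefore does not describe genes with a wider spread, such as Runx1 and Cebpb. The members and the gene lists were chosen with earlier results of these data known. Named genes are the 8 members, up to 5 genes of each list by p, genes at 0 and the 3 nearest profiles of each member. Csf2ra, Il34, Nos2 and most of the named genes that were too low to test lie outside this rule and were chosen after their values were seen. A further 2 genes under this rule are not reported here. Promoter windows are from RefSeq (GRCm38.p6) and overlaps from GENCODE M21. Figures were drawn with matplotlib 3.10.9.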

Additional observations from a re-analysis of the deposited data

How the results depend on the processing

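With each library left out in turn, and under every other scaling, filter and tool tried, Spi1, Irf8, Irf5, Runx1, Cebpa, Ikzf1 and Cebpd kept a positive and Cebpb a negative value. Irf8, Irf5, Cebpa and Ikzf1 were called in 17 of 17 alternatives and Spi1 in 16, the exception being limma-trend on log2(FPKM + 1) without a filter (0.84, adjusted p = 0.0792). Runx1 was lost there (0.26), with limma-voom (1.07), without both Control 1 and TAF15 OE 1 (0.72) and with 4 of 6 single libraries left out (0.75 to 1.29). It has no value on FPKM with a mean of at least 0.5. Cebpb ran from -0.92 to -0.22 with single libraries left out and was called when TAF15 OE 1 was left out, alone or together with Control 1 (-1.06), so that 0 to 1 members were called lower with single libraries left out, and 1 without both.

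Calls over all genes with 1 library left out ran from 877 to 1293 higher and 365 to 1208 lower. Lower calls numbered 1568 without a filter, and 441 and 443 with limma-trend on FPKM of a mean of at least 0.5 with a pseudocount of 1 and 0.1. That fit with a pseudocount of 1 and no filter called 436 higher and 165 lower. There it called 1 ETS relative, 0 interferon regulatory factor relatives, 0 Runx and Ikaros relatives, 3 other factors (median 0.25), 4 growth factor genes (median 0.44), 5 PU.1 targets (median 0.86) and 2 IRF targets (median 0.41), and the C/EBP target median was 0.06. With the mean FPKM of at least 0.5 it called 0 interferon regulatory factor relatives and 1 Runx or Ikaros relative at either pseudocount, and with a pseudocount of 1 the medians were 0.32 for other factors, 0.90 for PU.1 targets and 0.96 for C/EBP targets. Without a filter edgeR called 2 other factors, 1 growth factor gene and 1 C/EBP target lower, with medians of 0.77 (ETS), 0.46 (growth factors) and 0.95 (C/EBP targets). Of interferon regulatory factor relatives, 2 were called with DESeq2, total counts, no filter, a minimum mean of 1 CPM and without both Control 1 and TAF15 OE 1, where their median turned to -0.15. With the size factors of DESeq2, 1 Runx or Ikaros relative was called. DESeq2, and leaving out both libraries, called 1 growth factor gene lower. Total counts alone put 72.0% of all calls higher, DESeq2 54.6% and the main test 61.0%.

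With single libraries left out, calls ran from 0 to 2 (interferon regulatory factor relatives), 1 to 2 (Runx and Ikaros relatives), 3 to 7 (other factors; 0 to 1 lower; median 0.34 to 0.58), 3 to 7 (growth factors; 0 to 1 lower) and 1 to 3 (C/EBP targets; median 0.85 to 1.32). Irf7 ran from -0.17 to 0.52, Irf9 from -0.08 to 0.30 and Ddit3 from -0.06 to 0.13, and without both libraries they were -0.49, -0.15 and -0.05. The cause of these changes was not tested.

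Same-numbered libraries of the 2 groups deviated together with correlations of 0.126, 0.0776 and 0.0871, not all above 0.1, so the numbers were not taken to pair them, though every library correlated best with its own number. With the replicate block, 2 interferon regulatory factor relatives were called higher and 1 other factor, 2 growth factor genes and 1 C/EBP target lower, Tlr2 (adjusted p = 0.0587) and C3 (adjusted p = 0.125) lost their calls, Irf1 (adjusted p = 0.0403), Lcn2 (adjusted p = 0.00199) and Ptgs2 (lower, adjusted p = 0.0486) gained one, and no call of a member changed. At these depths counting error alone gives Runx1 a CV of 17.0% in Control and 11.2% in TAF15 OE.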
